A study of Mus musculus with 6 samples.

Results

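The genes described are 7 genes of the mouse mitochondrial genome: the 3 mitochondrially encoded subunits of cytochrome c oxidase (mt-Co1, ENSMUSG00000064351; mt-Co2, ENSMUSG00000064354; mt-Co3, ENSMUSG00000064358), both mitochondrially encoded subunits of ATP synthase (mt-Atp6, ENSMUSG00000064357; mt-Atp8, ENSMUSG00000064356) and both mitochondrial ribosomal RNAs (mt-Rnr1, ENSMUSG00000064337; mt-Rnr2, ENSMUSG00000064339). They were chosen by Ensembl ID, as named genes and not by their values, and are 7 of the 48505 genes in the deposited tables. The libraries hold fragments of RNA that an antibody against N6-methyladenosine (m6A), a methylated form of adenosine, had bound and pulled down (the immunoprecipitate, IP). There were 3 libraries from fetal hearts after maternal inhalation of engineered titanium dioxide nanoparticles (nano-TiO2) and 3 from fetal hearts after sham exposure to filtered air.

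Both groups were wild-type FVB/NJ mice, and hearts of fetuses of both sexes were pooled for each library. The dams, 14 in the study and 10 weeks old, were in a whole-body chamber for 360 minutes on each of 6 days within 8 days, beginning on gestational day 5. The target concentration in the nano-TiO2 group was 12 mg/m3. Hearts were taken on gestational day 15, and 3 µg of total RNA per sample was cut to about 250 to 350 nucleotides. Which litters entered which pool is not stated. The p-values therefore only weigh the difference between groups against the spread of these 6 pooled samples within groups. Whether the pools are independent replicates of the exposure is not known.

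Mitochondrial DNA is transcribed into long precursors, from which the tRNAs that lie between most genes are cut out to free the mRNAs and rRNAs. Cytochrome c oxidase passes electrons to oxygen at the end of the respiratory chain, and ATP synthase uses the resulting proton gradient to make ATP. The adult heart, which depends on oxidative phosphorylation, is rich in mitochondrial RNA, while the hearts used here were fetal. mt-Co1 and mt-Co2 carry the redox centres of the oxidase, and mt-Co3 completes its mitochondrially encoded core. mt-Atp6 lines the proton path of ATP synthase and mt-Atp8 is a small subunit of its membrane part, both being translated from 1 shared mRNA whose reading frames overlap. mt-Rnr1 is the rRNA of the small mitochondrial ribosomal subunit and mt-Rnr2 that of the large subunit.

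The tables give each gene as windows of 25 nucleotides along its transcript. The members had 61 windows (mt-Co1), 27 (mt-Co2), 31 (mt-Co3), 27 (mt-Atp6), 8 (mt-Atp8), 38 (mt-Rnr1) and 63 (mt-Rnr2). The number of windows matched the gene's length in RefSeq for all 7. For mt-Co2, mt-Atp6 and mt-Rnr1 that number fits 2 mitochondrial genes, so the match alone does not identify them. The IP level of a gene is the sum of its normalized reads, which are reads divided by 1 size factor per library. It rises with the amount of the RNA and with the share that is pulled down, and in these tables alone the amount and the share cannot be told apart, nor can fewer cells of a type and less RNA per cell. Whole reads numbered 20205024, 24031476 and 28251706 in nano-TiO2 replicates 1, 2 and 3, and 30862986, 31523675 and 22151447 in sham replicates 1, 2 and 3. The 4 genes with the most reads, which the files do not name, took 8.03% to 18.0% of reads in nano-TiO2 and 20.6% to 35.2% in sham libraries. The tables at hand pair no other Ensembl ID with a symbol, so markers of heart muscle, blood and liver were not examined.

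All 7 genes were among the more abundant in the IP libraries, at ranks 9 (mt-Rnr2), 10 (mt-Co3), 14 (mt-Rnr1), 28 (mt-Atp6), 34 (mt-Co2), 165 (mt-Co1) and 363 (mt-Atp8) of 18566 genes tested. Per window, with the windows at 0 that close each transcript counted in, the mean IP level over the 6 libraries was highest for mt-Co3, at 4845 normalized reads. It was 3484 for mt-Rnr1, 2557 for mt-Rnr2, 2407 for mt-Atp6, 2236 for mt-Co2, 1079 for mt-Atp8 and 260.2 for mt-Co1. The place of mt-Co3 at the top and of mt-Atp8 above mt-Co1 at the bottom held in 6 of 6 libraries. mt-Rnr2 was above mt-Atp6 in 5 of 6 libraries, and mt-Atp6 above mt-Co2 in 5 of 6, so these neighbours were not set apart beyond the spread between libraries. mt-Rnr1 was above mt-Rnr2 in 6 of 6. Over the tested windows alone (those averaging 10 or more normalized reads), an alternative added after seeing the data, mt-Co3 had 5776 normalized reads per window and mt-Rnr1 4012. mt-Co2, mt-Rnr2 and mt-Atp6 then lay close together in that order, at 2744, 2730 and 2708, followed by mt-Atp8 at 1726 and mt-Co1 at 273.7. The order of mt-Rnr2, mt-Atp6 and mt-Co2 thus changed with the windows counted. Of the normalized total, mt-Co3 took 0.310% to 0.544% in nano-TiO2 libraries and 0.479% to 0.890% in sham libraries, while mt-Co1 took 0.0400% to 0.0689% in nano-TiO2 libraries and 0.0454% to 0.0886% in sham libraries.

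**Figure D1:**
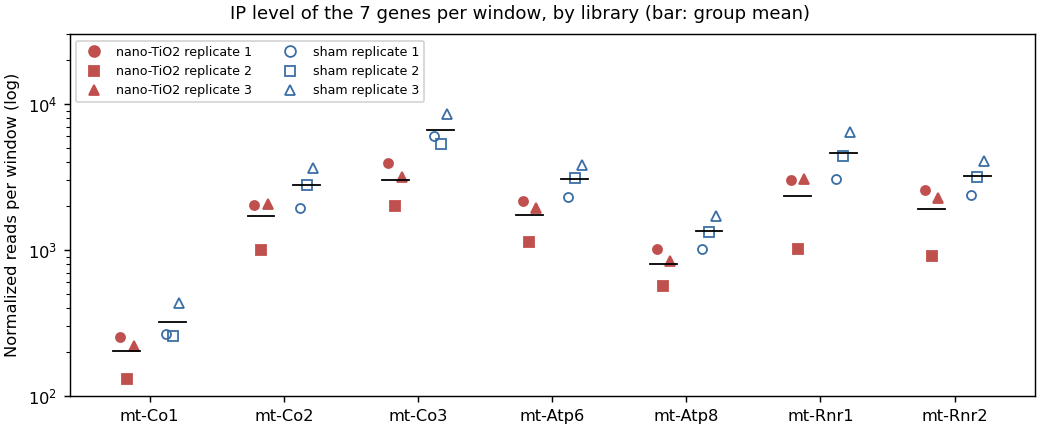
Normalized reads per 25-nucleotide window of each gene (windows at 0 counted in) on a log axis, with nano-TiO2 libraries as filled and sham libraries as open symbols (1 symbol shape per replicate number, bars are group means). nano-TiO2 replicate 2 is the lowest and sham replicate 3 the highest library for each of the 7 genes.

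The IP level was lower in nano-TiO2 than in sham hearts on average for each of the 7 genes, where 43.6% of all genes had a negative change, and the fall passed the test for mt-Co3, mt-Atp6 and mt-Atp8. mt-Co3 had 122621, 61624 and 97411 normalized reads in nano-TiO2 libraries and 187757, 165406 and 266321 in sham libraries. The groups did not overlap, and every nano-TiO2 library lay well below the lowest sham library. The log2 change was -1.16 ± 0.28 (SE), a 2.24-fold lower level, with an adjusted p of 0.0114 in limma with Benjamini-Hochberg adjustment over all genes. Only 1.76% of the genes tested had a more negative change. These changes are on the scale of log2(normalized reads + 1), and n is 3 libraries in each group throughout.

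Both ATP synthase mRNAs fell by like amounts. mt-Atp6 had 58374, 30540 and 52659 normalized reads in nano-TiO2 libraries and 61959, 83409 and 103026 in sham libraries. Here nano-TiO2 replicate 1 lay close below sham replicate 1, with no overlap. Its log2 change was -0.83 ± 0.27 (SE), with an adjusted p of 0.0413 in limma. mt-Atp8 had 8082, 4498 and 6756 normalized reads in nano-TiO2 libraries and 8132, 10613 and 13710 in sham libraries. Its groups almost touched at replicate 1 of each, again without overlap. Its log2 change was -0.76 ± 0.25 (SE), with an adjusted p of 0.0435 in limma.

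The other oxidase mRNAs did not pass the test. mt-Co1 had 15544, 7952 and 13448 normalized reads in nano-TiO2 libraries and 16106, 15683 and 26514 in sham libraries. mt-Co2 had 54920, 27098 and 55504 in nano-TiO2 libraries and 52078, 74856 and 97766 in sham libraries. The groups of mt-Co1 did not overlap by a small gap, and those of mt-Co2 overlapped. The log2 changes were -0.67 ± 0.28 for mt-Co1 and -0.74 ± 0.32 for mt-Co2 (SE), with adjusted p-values of 0.0965 and 0.102 in limma.

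Neither rRNA passed. mt-Rnr1 had 113709, 38670 and 116028 normalized reads in nano-TiO2 libraries and 116093, 165844 and 243941 in sham libraries. mt-Rnr2 had 161653, 57600 and 141825 in nano-TiO2 libraries and 149774, 199481 and 256273 in sham libraries. The groups of mt-Rnr1 almost touched, and in mt-Rnr2 the first nano-TiO2 library was above the first sham library. The log2 changes, -1.07 ± 0.43 for mt-Rnr1 and -0.85 ± 0.38 for mt-Rnr2 (SE), were as large as those of the ATP synthase genes. Their errors were larger, and the adjusted p-values were 0.0835 and 0.111 in limma. mt-Rnr1 also had the widest range of the 7, its highest library having 6.31 times its lowest.

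In all, 3 of the 7 genes fell and 0 rose. Over all 18566 genes tested, 36% were called, 24% higher and 12% lower. Groups did not overlap, with nano-TiO2 lower, in 5 of the 7 genes and in 18.5% of all genes. The median log2 change was -0.83 over the 7 genes, -0.76 over the 5 mRNAs and -0.96 over the 2 rRNAs, against 0.13 over all genes. The 5 mRNAs are counted by gene here and below, although mt-Atp6 and mt-Atp8 share 1. The 7 genes share libraries and moved together: over the 6 libraries the 21 pairwise correlations of their log2 levels ran from 0.885 to 0.995 (Pearson, a description), so they are not 7 separate observations. In each of the 7 the lowest library was nano-TiO2 replicate 2 and the highest sham replicate 3. With sham replicate 3 left out, mt-Co3 alone was called of the 7, at a log2 change of -0.96. It was also the one call when nano-TiO2 replicate 2 (-0.89), nano-TiO2 replicate 3 or sham replicate 2 was left out. Over all 18566 genes, 4771 to 6036 were called with 1 library left out, against 6676 with every library.

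The count of falls also moved with the scale on which libraries were set. The normalized totals of the libraries were themselves lower in nano-TiO2, at 22545948, 19886237 and 22752137 for replicates 1, 2 and 3, than in sham, at 27762102, 34527421 and 29937922. As a share of the library's normalized total, the 7 genes together took 2.37%, 1.15% and 2.13% in nano-TiO2 libraries and 2.13%, 2.07% and 3.37% in sham libraries, and the groups overlapped. The 5 mRNAs took 0.935% ± 0.249 of nano-TiO2 and 1.29% ± 0.356 of sham totals (SD, n = 3 each). The 2 rRNAs took 0.946% ± 0.403 of nano-TiO2 and 1.23% ± 0.386 of sham totals. With every library scaled to 1 total, the median log2 change of all genes moved to 0.61. The members' changes then ran from -0.67 to -0.17 and 0 of the 7 passed, where 8005 of all 18566 genes were called higher and 170 lower. With quantile normalization, or with each library's trend with gene length removed, 0 of the 7 passed as well. Over all genes these 2 settings called 5896 (2815 lower) and 4484 (2369 lower). In the second of these settings the change of mt-Atp8 turned to 0.039.

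Which other genes followed the same course over the 6 libraries was looked up by Pearson correlation with the mean log2 level of the mRNAs and of the rRNAs. ENSMUSG00000072407 was most like the mRNAs (r = 0.999) and ENSMUSG00000085944 most like the rRNAs (r = 0.999), of 18559 genes compared. With 6 points that share library and depth these values are descriptions. A correlation above 0.9 was reached by 770 genes for the mRNAs and by 463 for the rRNAs.

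The adjusted table set the levels of the 7 genes much closer together across libraries. Its values are the normalized ones divided by 1 factor per gene and library and rounded to whole numbers, and the sources used here do not say what the factor was made from. In adjusted score mt-Co3 had 157290, 115368 and 128354 in nano-TiO2 libraries and 178112, 122541 and 174826 in sham libraries. mt-Atp8 had 8918, 8730 and 8458 in nano-TiO2 libraries and 8619, 8072 and 9012 in sham libraries. mt-Rnr1 had 123645, 92736 and 149639 in nano-TiO2 libraries and 133791, 100582 and 177871 in sham libraries. The groups overlapped in these genes and in the other 4.

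Of the 7 genes, 0 passed limma's test on the adjusted level, with adjusted p-values of 0.395 to 0.914, and 0 had an unadjusted p under 0.05. Over all 19361 genes tested, 0 passed (0%), while 3592 (18.6%) had an unadjusted p under 0.05, and limma was the one tool run on these scores. The log2 changes ran from -0.24 ± 0.14 (SE) for mt-Co3 to 0.02 ± 0.07 (SE) for mt-Atp8, with a median of -0.07 against 0.17 over all genes. When sham replicate 2 was left out, mt-Co3 passed with a log2 change of -0.41, beside 1611 rises and 267 falls over all genes. The ratio of the highest to the lowest library was 1.12 for mt-Atp8, 1.23 for mt-Atp6, 1.25 for mt-Co2, 1.40 for mt-Rnr2, 1.54 for mt-Co3, 1.75 for mt-Co1 and 1.92 for mt-Rnr1. In IP level the same ratio ran from 3.05 for mt-Atp8 to 6.31 for mt-Rnr1.

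**Figure D2:**
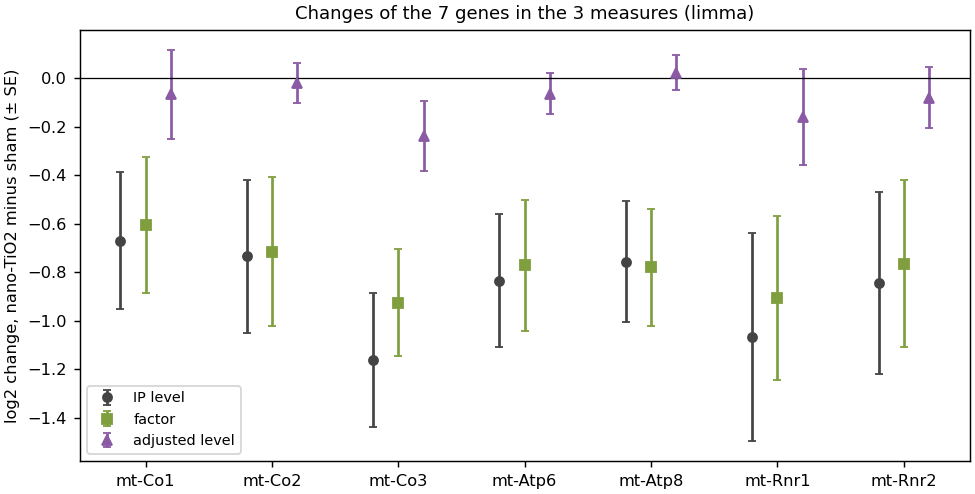
log2 change, nano-TiO2 minus sham, of each gene with its standard error from limma (n = 3 libraries in each group), for the IP level, the factor between the deposited tables and the adjusted level. IP level and factor lie between -1.16 and -0.60 for all 7 genes, and the adjusted level between -0.24 and 0.02.

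The factor that separates the tables was lower in nano-TiO2 libraries on average for each of the 7 genes, as it was in 60.4% of all genes. The IP level is the product of factor and adjusted level, so these 3 measures are not independent. For mt-Co3 the factor was 0.780, 0.534 and 0.759 in nano-TiO2 libraries and 1.05, 1.35 and 1.52 in sham libraries, with no overlap. For mt-Atp8 it was 0.906, 0.515 and 0.799 in nano-TiO2 libraries and 0.943, 1.31 and 1.52 in sham libraries, again with no overlap. These 2 of the 7 genes passed limma's test, with log2 changes of -0.93 ± 0.22 (SE, adjusted p = 0.0178) and -0.78 ± 0.24 (SE, adjusted p = 0.0395). Over all 13489 genes whose factor could be recovered, 32.7% passed, and 18.7% passed as lower. Groups did not overlap, with nano-TiO2 lower, in mt-Co3, mt-Atp6 and mt-Atp8 and in 30.6% of all genes.

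For the other 5 genes the log2 change of the factor ran from -0.91 in mt-Rnr1 to -0.60 in mt-Co1, with adjusted p-values of 0.0572 to 0.124 in limma. mt-Atp6, whose factor was 0.876, 0.501 and 0.850 in nano-TiO2 libraries and 0.898, 1.43 and 1.44 in sham libraries, missed the threshold. The rRNAs had the lowest single factors, 0.417 for mt-Rnr1 and 0.432 for mt-Rnr2, both in nano-TiO2 replicate 2, and the highest single factor was 1.65, for mt-Rnr1 in sham replicate 2. Leaving out sham replicate 2 left 0 of the 7 genes past the test, and leaving out sham replicate 1 gave 3, mt-Atp6 being the third. mt-Atp8 also lost its call without nano-TiO2 replicate 1, 2 or 3 or sham replicate 3. Over all 13489 genes, 1554 to 4503 passed with 1 library left out, against 4405 with every library.

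**Figure D3:**
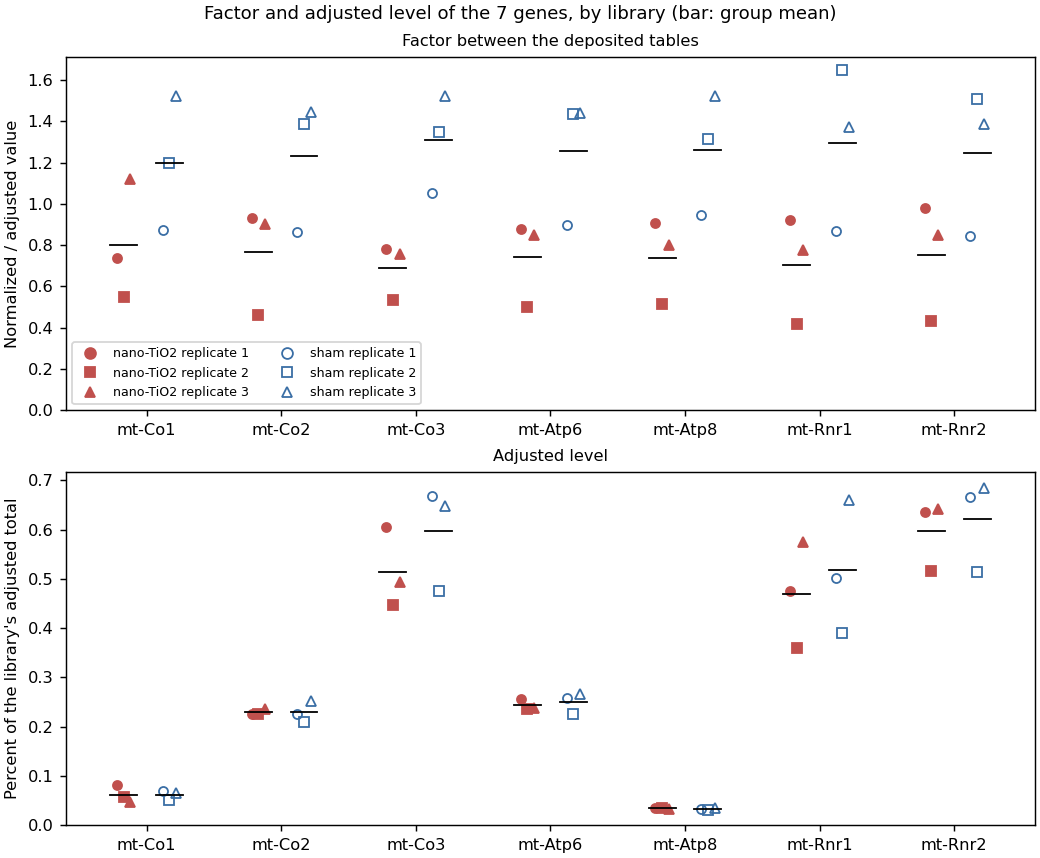
Upper part, the factor (normalized over adjusted value) of each gene by library; lower part, the adjusted level as a percent of the library's adjusted total; both axes start at 0, nano-TiO2 libraries are filled and sham libraries open, and bars are group means. The factor of mt-Co3 lies between 0.534 and 0.780 in nano-TiO2 and between 1.05 and 1.52 in sham libraries, while the adjusted shares of the groups overlap in mt-Co3.

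The question of rRNA against mRNA was asked as a ratio within each library, which library scaling does not change. The summed IP level of the 2 rRNAs over that of the 5 mRNAs was 1.06, 0.731 and 1.14 in nano-TiO2 libraries and 0.815, 1.04 and 0.986 in sham libraries. The nano-TiO2 libraries held both the lowest and the highest ratio, and the sham libraries lay between them. nano-TiO2 libraries averaged 0.978 ± 0.218 and sham libraries 0.948 ± 0.119 (SD, n = 3 each), a difference of 0.03 on the log2 scale. In the adjusted table the ratio was 0.924, 0.876 and 1.16 in nano-TiO2 libraries and 0.932, 0.910 and 1.06 in sham libraries, a difference of 0.02. The groups differed by less than the spread between libraries in both tables, and the sign of this small difference turned on which library was left out.

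In ratios between single genes the groups overlapped as well, though some log2 differences were larger than the SD within either group. mt-Rnr2 over mt-Rnr1 in IP level was 1.42, 1.49 and 1.22 in nano-TiO2 libraries and 1.29, 1.20 and 1.05 in sham libraries, a log2 difference of 0.22 with overlap (exact two-sided permutation p = 0.2, adjusted p = 0.343 over 8 such tests). mt-Atp8 over mt-Atp6 was 0.138, 0.147 and 0.128 in nano-TiO2 libraries and 0.131, 0.127 and 0.133 in sham libraries (exact permutation p = 0.3, adjusted 0.343). The ratio of these neighbours on 1 mRNA was the steadiest of those computed. Since their reading frames overlap, reads from the shared stretch could be given to either gene. mt-Co3 over mt-Co2 was 2.23, 2.27 and 1.76 in nano-TiO2 libraries and 3.61, 2.21 and 2.72 in sham libraries. These groups overlapped only through sham replicate 2 (exact permutation p = 0.3, adjusted 0.343), so the larger fall of mt-Co3 was not shown to differ from that of mt-Co2. With 3 libraries against 3 the smallest p such a test can give is 0.1.

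**Figure D4:**
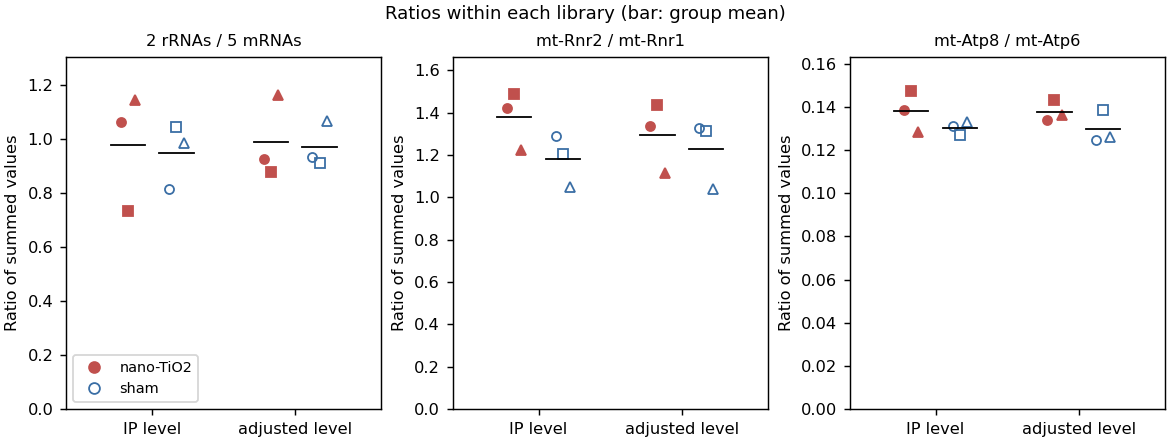
Ratios of summed values within each library, for the 2 rRNAs over the 5 mRNAs, mt-Rnr2 over mt-Rnr1 and mt-Atp8 over mt-Atp6, in IP level and adjusted level; axes start at 0, filled symbols are nano-TiO2, open symbols sham, and bars are group means. The groups overlap in all 6 comparisons, and the rRNA over mRNA ratio in IP level spans 0.731 to 1.14 in nano-TiO2 libraries.

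Signal ran along the tested windows of each gene and did not stand in 1 narrow peak, and the level dropped in the later part of mt-Rnr1. The highest window had 1.32 times the median tested window in mt-Atp8, 1.33 times in mt-Co3, 1.59 times in mt-Rnr2, 1.61 times in mt-Co2, 1.67 times in mt-Atp6, 2.01 times in mt-Rnr1 and 2.67 times in mt-Co1. The highest window started at nucleotide 601 of mt-Co3, where it held 6545, 3195 and 5310 normalized reads in nano-TiO2 libraries and 10188, 9036 and 14138 in sham libraries. In mt-Rnr1 it started at nucleotide 201, with 8559, 2771 and 8617 in nano-TiO2 libraries and 8739, 12462 and 18277 in sham libraries. The last 3 windows of each gene, or the last 4 in mt-Rnr1, were at 0 in every library. The last 3 windows were likewise at 0 in 60.7% of all genes tested, so the ends of the transcripts were not read out in these tables.

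mt-Co1 and mt-Rnr1 had the most uneven profiles. In mt-Co1 the level climbed along the transcript: windows starting at nucleotides 1 to 701 averaged 162.2, 88.8 and 143.0 normalized reads in nano-TiO2 libraries and 153.0, 159.9 and 268.3 in sham libraries, and those starting at 726 to 1426 averaged 373.8, 185.4 and 320.7 in nano-TiO2 and 402.3, 380.9 and 645.9 in sham libraries. In mt-Rnr1 the level dropped steeply past the window at nucleotide 501. Windows starting at 1 to 501 averaged 5338, 1817 and 5447 normalized reads in nano-TiO2 libraries and 5461, 7802 and 11482 in sham libraries. Those starting at 526 to 801 averaged 133.5, 43.7 and 136.0 in nano-TiO2 and 118.6, 166.9 and 234.3 in sham libraries. The first stretch of mt-Rnr1 was thus 40.0, 41.6 and 40.0 times the second in nano-TiO2 libraries and 46.0, 46.8 and 49.0 times in sham libraries. In mt-Co1 the first stretch was 0.434, 0.479 and 0.446 times the second in nano-TiO2 libraries and 0.380, 0.420 and 0.415 times in sham libraries. These stretches were drawn after the profiles were seen and no share over all genes was computed, so the ratios are a description without a test.

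**Figure D5:**
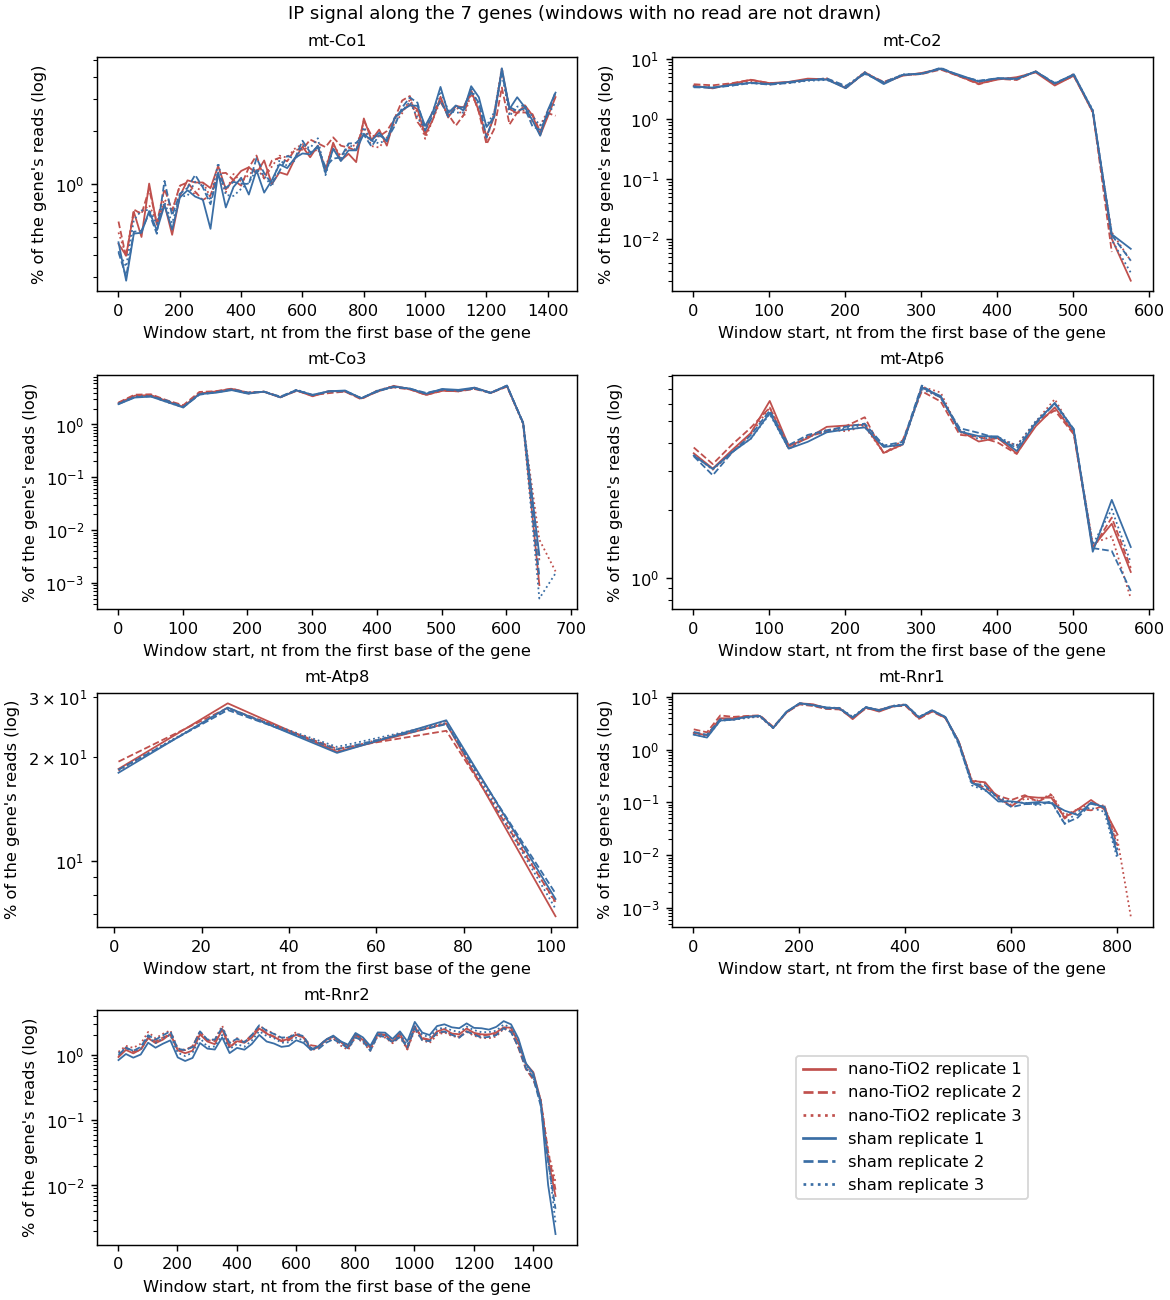
Percent of a gene's normalized reads in each 25-nucleotide window (log axis) against the start of the window in the gene, 1 line per library, nano-TiO2 in red and sham in blue. Lines of the 6 libraries lie close together over most windows, with a wider spread in mt-Rnr2. There the first 25% of windows holds from 19.3% (sham replicate 1) to 27.5% (nano-TiO2 replicate 3) of reads. mt-Co1 climbs toward its end, and mt-Rnr1 drops past nucleotide 501.

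Tested window by window, 45 of the 227 windows tested in the 7 genes (those averaging 10 or more normalized reads) were lower in nano-TiO2 and 0 were higher, by limma with Benjamini-Hochberg adjustment. Of all 250317 windows tested, 11.2% were called, and 7.32% were called lower. Lower calls were more frequent at higher levels. In a run on the 57169 windows averaging 50 or more, 19875 were called lower and 2462 higher. Nearly all tested windows of the 7 genes are among those, so 7.32% is not the share for windows of like level. All 26 tested windows of mt-Co3 were among the 45. The others were 10 of 24 in mt-Atp6, 4 of 59 in mt-Rnr2, 3 of 58 in mt-Co1, 1 of 5 in mt-Atp8, 1 of 33 in mt-Rnr1 and 0 of 22 in mt-Co2. In mt-Co3 the smallest p was at nucleotide 626, with a log2 change of -1.17 and an adjusted p of 0.00974. In mt-Atp6 it was at nucleotide 576, with a log2 change of -1.02 and an adjusted p of 0.0138. That window did not follow the gene's total: sham replicate 1 (851 normalized reads) lay above sham replicate 2 (729). The total of mt-Atp6 was lower in sham replicate 1 (61959) than in sham replicate 2 (83409). Of the other members, mt-Co3 (187757 and 165406) and mt-Co1 (16106 and 15683) had sham replicate 1 above sham replicate 2, and the rest had it below. Whether reads of another gene entered that window was not tested. Leaving out sham replicate 3 brought the 45 to 5, nano-TiO2 replicate 3 to 11, sham replicate 1 to 19 and nano-TiO2 replicate 2 to 25. Leaving out nano-TiO2 replicate 1 gave 68. Over all 250317 windows the calls, 28052 with every library, were 20088, 13744, 12114, 21647 and 13155 in these 5 runs, in the same order. Among windows averaging 50 or more, lower calls were 26 of 26 in mt-Co3, 19 of 24 in mt-Atp6 and 7 of 58 in mt-Co1. They were 4 of 5 in mt-Atp8, 3 of 58 in mt-Rnr2, 1 in mt-Rnr1 and 0 of 22 in mt-Co2.

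On the adjusted level, 0 of the 227 windows passed, where 0.00316% of all windows did and 24602 of 253327 had an unadjusted p under 0.05. Whether signal moved along a gene relative to the rest of that gene was tested with limma's diffSplice, which takes windows as independent. There too 0 of the 227 windows passed, where 0.0465% of 249423 windows did and 8123 had an unadjusted p under 0.05.

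The share of each gene's reads in the first 25% of its windows was on average higher in nano-TiO2 for each of the 7 genes, and the groups did not overlap in mt-Co1, mt-Co2, mt-Co3 and mt-Atp6. Over all genes with at least 8 windows, 7.07% had a higher share there without overlap, and 47% had a higher mean. In mt-Co1 the share was 13.1%, 13.5% and 13.1% in nano-TiO2 libraries and 11.2%, 12.5% and 12.4% in sham libraries. In mt-Co3 it was 27.4%, 28.3% and 26.8% in nano-TiO2 libraries and 26.0%, 26.5% and 26.7% in sham libraries. These shifts were small, of about 1 percentage point in the 4 genes, and neighbouring genes of 1 precursor do not give separate evidence. In the rRNAs the groups overlapped, at 41.8% to 43.6% in nano-TiO2 and 41.1% to 42.2% in sham libraries for mt-Rnr1, and at 23.8% to 27.5% in nano-TiO2 and 19.3% to 26.4% in sham libraries for mt-Rnr2. The highest library in each of the 4 genes was nano-TiO2 replicate 2. Without overlap, 0 of the 7 genes were higher and 1 lower in the second 25% of windows, and 0 and 0 in the third. No share over all genes was computed for these. In the last 25%, 1 was higher (mt-Rnr1) and 1 lower (mt-Co2), where 7.16% of all genes were higher and 6.33% lower. Copies of mitochondrial sequence in the nuclear genome, such as a RefSeq pseudogene that carries mt-Atp6 among its synonyms, could share reads with these genes, and the sources used here do not state how such reads were counted.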

How the data were processed

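The data are 6 anti-m6A IP libraries of pooled fetal hearts, grouped by the sample titles. The submitters' processing notes list DESeq2 1.34.0, HISAT2 2.2.1 and Salmon 1.5.2, and GRCm39 as the genome build; what each did is not stated. The authors deposited a normalized signal per window, with no unit named in its header. All values (100%) were whole multiples of 1 step per library within 0.0001, so whole reads were recovered. The adjusted values that the authors deposited are scores in whole numbers.

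Each gene's windows were added up. The two-sided test was limma 3.58.1 with a variance trend (R 4.3.3), run with no covariates on log2(value + 1) of every gene, or every window, that averaged 10 or more; p-values were adjusted by Benjamini-Hochberg over all of these, and the threshold was 0.05. On the recovered reads edgeR 4.0.16 called 6932 genes and DESeq2 1.42.0 called 7316, against 6676 by limma. Scripts ran in Python 3.11.15 and were tested on simulated data. For the factor, a prior variance that followed the factor's own mean failed that test, since the factor averages about 1 in every gene and its mean carries no level. The prior therefore follows the gene's mean IP level, a choice made after real values had been seen; the 2 genes called were the same with either.

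All 7 genes are named by the rule that chose them; the most similar gene to each profile and, per gene, the highest window and the called window with the smallest p were also looked up. Members and lists were chosen with earlier results of these data known. Lists of other mitochondrial genes and of cell type markers could not be matched to IDs (0 matched) and give no result. Libraries held 20205024 to 31523675 reads; PCR copies are not independent molecules. No sequences are printed.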

Additional observations from a re-analysis of the deposited data

How the results depend on the processing

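Of the 7 genes, 3 were called in IP level. The number was 0 with quantile normalization, with the length trend removed, with length and level trends removed and with equal totals, 1 with equal totals outside the 4 genes with the most reads and with the median of a gene's windows, 6 with DESeq2 and 1 to 3 when 1 library was left out. Filters, pseudocounts, TMM scaling, array weights and edgeR gave 2 or 3. Over all genes, the 6676 calls became 5896 with quantile normalization, 4484 with the length trend removed and 2735 with both trends removed. They became 8175 with equal totals, 7312 with equal totals outside the 4 genes and 2818 of 8877 with window medians. With 1 library left out they were 4771 to 6036. In the adjusted table array weights gave 1 call (mt-Co3), where they called 5011 of 19361 genes, and leaving out 1 library 0 to 1, against 0. For the factor, 2 calls became 1 with no filter, with libraries centred on their median factor and with no trend in the prior, 0 with length, or length and level, trends removed, and 0 to 3 with 1 library left out. Over all genes, the factor's 4405 calls became 3752 of 21411 with no filter, 3338 with libraries centred and 3948 with no trend in the prior. They became 1898 with the length trend removed, 1243 with both trends removed and 1554 to 4503 with 1 library left out. The alternatives on the prior and on the midpoint of the factor's interval were chosen after seeing the data. Of the IP windows, 45 calls became 6 with TMM scaling and 0 with quantile normalization. They became 116 with a mean of at least 1 and 5 to 68 with 1 library left out. Over all windows, the 28052 calls became 20759 with TMM scaling, 11004 with quantile normalization and 27133 of 1024856 with a mean of at least 1. At a mean of at least 50 they became 22337 of 57169. With 1 library left out they were 12114 to 21647. The cause of these differences was not tested.

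With length and level trends removed, IP changes turned to 0.26 (mt-Co2), 0.17 (mt-Atp6) and 0.49 (mt-Atp8), the last being 0.039 with length alone. The factor's changes turned to 0.062 (mt-Co2), 0.0098 (mt-Atp6) and 0.12 (mt-Atp8). Adjusted changes, all near 0, turned to 0.0047 (mt-Co1), 0.18 (mt-Co2), 0.14 (mt-Atp6), 0.011 (mt-Rnr1) and 0.031 (mt-Rnr2) with both trends removed, to 0.019 (mt-Co2) with length alone, and to 0.072 (mt-Co2) and 0.032 (mt-Atp6) with quantile normalization. That of mt-Atp8 turned to -0.14 with TMM scaling and -0.017 with array weights. With 1 library left out, adjusted changes ran from -0.29 to 0.11 (mt-Co1), -0.10 to 0.062 (mt-Co2), -0.019 to 0.061 (mt-Atp8), -0.37 to 0.045 (mt-Rnr1) and -0.23 to 0.026 (mt-Rnr2).

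Whether replicate numbers pair the samples could not be decided. The deviations of same-numbered libraries from their group means correlated at -0.37, 0.18 and 0.02 in IP level. Not every library correlated best with its own number. Deviations within a group of 3 sum to 0 and carry library-wide differences, so these correlations cannot show whether samples were paired. With the replicate number as a block, 5 of the 7 genes were called in IP level by limma, mt-Co1 (adjusted p = 0.0373) and mt-Rnr1 (0.0427) being added, where 6415 of 18566 genes were called. The block called 156 of the members' IP windows, where 31744 of 250317 windows were called, 0 members in the adjusted table and 2 for the factor.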
